A study of Rattus norvegicus with 16 samples.

Results

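The right kidneys of 4 rats given a hormone, 2 of them ACTH and 2 DEX, were compared with the right kidneys of 4 rats given saline, each kidney being set against the untreated left kidney of the same animal. The hormone rats were chosen by the array titles and make up 4 of the 8 rats and 8 of the 16 arrays. The comparison asks what the hormones share: for each gene the right minus left difference of log2(signal + 16) was taken in each rat, and the mean of the hormone rats was set against that of the saline rats. This value is called the pooled difference below, and it is positive where the treated kidney of the hormone rats stood higher relative to its partner than in the saline rats.

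ACTH, adrenocorticotropic hormone, is the pituitary peptide that drives the adrenal cortex to make glucocorticoids, and DEX commonly stands for dexamethasone, a synthetic glucocorticoid, although the labels do not spell it out. Glucocorticoids act through the receptor Nr3c1, which binds DNA and switches genes of amino acid catabolism, glucose production and sodium transport in the kidney, while it damps collagen synthesis and immune signalling in many tissues. A gene that responds to circulating glucocorticoid could therefore respond to both agents.

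Per the titles, rats 1 and 5 had ACTH, rats 3 and 7 DEX, and rats 2, 4, 6 and 8 saline, all in the right kidney, and the left kidney of all 8 rats was the control. The design text of the series gives 2 rats for each treatment, whereas 4 are titled saline, and the titles were followed. Strain, sex, age, dose, route and duration are not given in the labels. Whether a hormone given to the right kidney also reached the left one is not known, and a response of equal size in both kidneys is removed by the right minus left difference. Each replicate is a separate rat, and whole-kidney RNA was used, so that fewer cells of a type and less RNA per cell cannot be told apart.

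Kidney markers were bright on every array: the sodium-phosphate transporter Slc34a1 ran from 4343 to 6318 signal units and the thick limb protein Umod from 1756 to 3260. The adrenal steroidogenic genes Star and Cyp11b2 lay below 50 units and under the brightness filter. Cyp21a1 (98.86 to 141.4 units) and Cyp11a1 (76.91 to 118.8) lay above it, and 6 of 8 measured adrenal cortex markers were tested. Rats 1 to 4 and rats 5 to 8 separated on the first principal component, a split the labels do not name and in which each side holds 1 ACTH, 1 DEX and 2 saline rats. Across all tested probe sets the right minus left differences of the 2 ACTH rats correlated at 0.29 and those of the 2 DEX rats at 0.31, whereas the 4 pairings of an ACTH with a DEX rat lay between −0.10 and 0.08. The highest correlation between a DEX and a saline rat was 0.54, for DEX rat 3 with saline rat 4. It exceeded both same-hormone pairs, while pairs of saline rats lay between −0.07 and 0.13. These values describe pairs of animals over the same probe sets and carry no test.

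No gene passed the test for a pooled difference. In limma 0 of 5244 probe sets (0%) had an adjusted p under 0.05 after Benjamini and Hochberg's adjustment, and the lowest adjusted p was 0.999. At an unadjusted p under 0.05 there were 74 higher probe sets (1.41%) and 70 lower ones (1.33%), 144 together, where 262 would be due by chance alone. All 4 hormone rats lay above all 4 saline rats for 64 probe sets (1.22%) and below them for 46 (0.877%), and such groups are called apart here. The 95% interval of a pooled difference, without adjustment, had a median half-width of 0.31, so shared differences smaller than that would mostly not stand out with 4 rats a group. Larger ones could be missed too, since the adjusted test is stricter and Col3a1 at −1.09 did not pass it. What follows describes the genes that came nearest, and every adjusted p among them is 0.999. The exact two-sided permutation test over the 70 ways of dividing the rats cannot go below 0.0286, and each gene whose groups did not overlap has that value by its selection. The 12 higher and 12 lower genes with the smallest unadjusted p among those apart are called the 24 leading genes.

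The lowest p of the whole table belonged to Col3a1, the chain of type III collagen made by interstitial fibroblasts. In the hormone rats its signal went from 414 in the left to 162 in the right kidney of ACTH rat 1, from 343 to 225.5 in ACTH rat 5, from 283 to 142 in DEX rat 3 and from 606 to 297 in DEX rat 7. In the saline rats it went from 275 to 306 in rat 2, from 267 to 278 in rat 4, from 370 to 485 in rat 6 and from 457 to 461 in rat 8. The right kidney was thus the lower one in all 4 hormone rats and the higher one in all 4 saline rats. The pooled difference was −1.09 ± 0.24 (SE of the fit, adjusted p = 0.999 in limma), with −1.07 ± 0.27 for ACTH over saline and −1.10 ± 0.27 for DEX over saline, and these last values share the saline rats. ACTH minus DEX was 0.03 with a 95% half-width of 0.68, so the near-equal values leave room for a sizeable difference between the hormones. A second, dimmer Col3a1 probe set had −0.36 ± 0.31. It was negative in all 4 hormone rats, at −0.84, −0.71, −0.27 and −0.51 in rats 1, 3, 5 and 7, but saline rat 8 had −1.14.

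Matrix genes leaned the same way. Of 23 tested genes of collagens, matrix proteins and their modifying enzymes, 20 had a negative pooled difference, with a median of −0.25 against −0.0044 over all 3187 tested genes, of which 48.6% were positive. At an unadjusted p under 0.05, 6 were lower and 0 higher, beside the 1.33% of all probe sets that were lower. The 6 were Col3a1, the type I collagen chains Col1a2 at −0.68 ± 0.22 and Col1a1 at −0.66 ± 0.24, the collagen prolyl hydroxylase subunit P4ha1 at −0.58 ± 0.19, the gelatinase Mmp2 at −0.39 ± 0.14 and the type V chain Col5a2 at −0.36 ± 0.15. A dimmer Mmp2 probe set had −0.10 ± 0.15. Groups were apart for Col3a1 and Col5a2. The positive members were Lamb2, a laminin chain of basement membranes, at 0.19, osteopontin Spp1 at 0.17 and the protease inhibitor Timp2 at 0.05. The list was made with results of these data known, and none of its members passed the test.

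The rats did not contribute alike. Col1a1 had a right minus left difference of −0.92 in ACTH rat 1, −0.92 in DEX rat 3 and −0.82 in DEX rat 7, but 0.15 in ACTH rat 5, inside the saline range of −0.14 to 0.19. The other Col1a1 probe sets, chosen after their values were seen, had −0.71, −0.65 and 0.21 ± 0.89, the last with −3.61 in saline rat 8. P4ha1 was low in the ACTH rats, at −0.63 and −0.28, and at 0.25 and 0.07 in the DEX rats, against 0.21 to 0.77 in the saline rats. The median over the 23 genes was −0.18, −0.22, −0.03 and −0.11 in rats 1, 3, 5 and 7 and 0.13, 0.10, 0.08 and 0.01 in rats 2, 4, 6 and 8. The groups of medians did not overlap, though rat 5 stood close to saline rat 8.

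**Figure D1:**
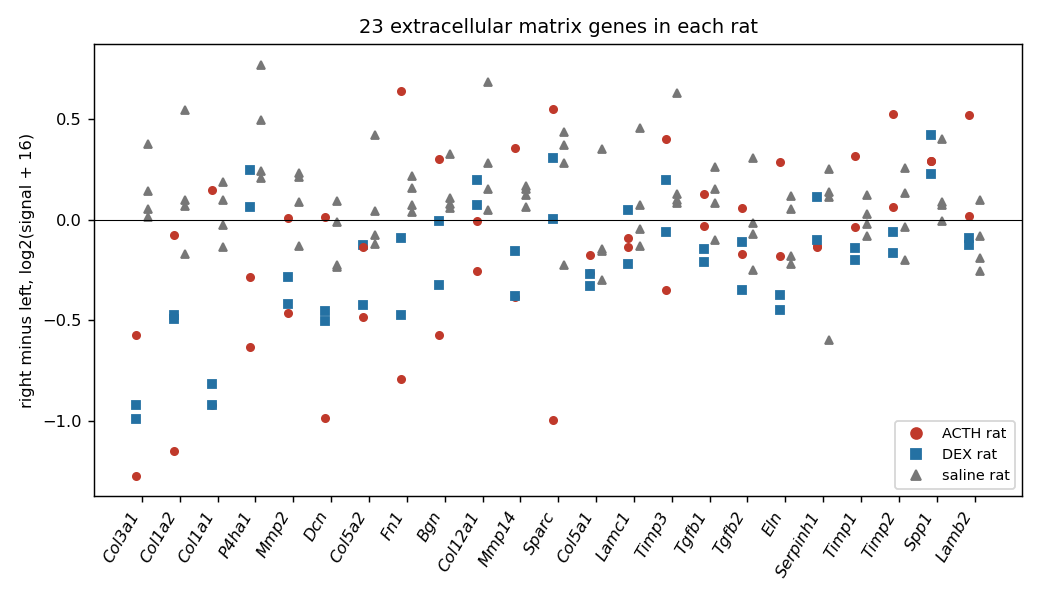
Right minus left difference of log2(signal + 16) of 23 extracellular matrix genes in each rat, ordered by pooled difference, with 1 point per rat and no error bars. Hormone rats lie below the saline rats for Col3a1 and Col5a2, and ACTH rat 5 lies among the saline rats for Col1a1.

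The kidneys contributed differently from rat to rat. Between hormone and saline rats the list's median was −0.10 in right kidneys and 0.12 in left kidneys. Among left kidneys the mean log2 level of the list was highest in rats 1, 3 and 7, at 8.09, 8.04 and 8.04. The remaining left kidneys had 7.85 to 7.90. On the treated side hormone rats had 7.82 to 7.85 and saline rats 7.92 to 8.04. For Col3a1 itself the hormone minus saline difference was −0.85 ± 0.26 in right kidneys (adjusted p = 1 in limma) and 0.23 ± 0.24 in left kidneys.

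A few immune genes were among the 24. Ccl5, a chemokine made by T cells, had right minus left differences of −1.21 and −0.47 in ACTH rats 1 and 5 and −0.25 in both DEX rats, against −0.05 to 0.42 in the saline rats, a pooled difference of −0.71 ± 0.21. Cd74, the invariant chain of MHC class II molecules, had −0.76, −0.12, −0.18 and −0.21 in rats 1, 3, 5 and 7, against 0.02 to 0.30 in the saline rats, a pooled difference of −0.47 ± 0.15. Its other probe sets had −0.60, −0.22 and −0.14. The class II genes RT1-Bb, RT1-Da and RT1-Ba had −0.34, −0.30 and −0.27. In rat 1 these 3 had −0.81, −1.02 and −0.79, against −0.34 to 0.06 in the other hormone rats. The class II genes RT1-Db1 and RT1-DMa had −0.07 and 0.18. Rsad2, an interferon-induced antiviral protein, had −0.35 ± 0.14. Of 21 tested genes of interferon response and antigen presentation 14 were negative, Cd74 and Rsad2 at p under 0.05 beside 1.33% of all probe sets, with a median of −0.08 that became 0.03 without rat 1, whose RT1-Da difference was −1.02. In the other direction the interferon signalling factor Stat2 had 0.23 ± 0.11, with groups apart.

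Leukocyte markers are given beside these genes. Of 7 tested leukocyte markers 6 were negative (median −0.18). Ccl5 was 1 of them and the one at p under 0.05, beside 1.33% of all probe sets that were lower. The lysozyme Lyz2 was another at −0.26 ± 0.12, while the pan-leukocyte phosphatase Ptprc had 0.06 ± 0.15. The mean log2 level of the 7 markers in right kidneys was 6.89 to 6.97 in the hormone rats and 6.97 to 7.26 in the saline rats. Endothelial markers were negative in 6 of 6 (median −0.12), with Pecam1 at −0.18 and 0 of them at p under 0.05, and without saline rat 8 that median was −0.04. The part that cell make-up plays in the lower matrix and immune values was not tested. Other low genes were Pdgfra, a growth factor receptor of interstitial cells, at −0.45 ± 0.14, the actin-binding peptide gene Tmsb4x at −0.45 ± 0.15, the G protein subunit Gng11 at −0.38 ± 0.12 and Top2a, the DNA topoisomerase of dividing cells, at −0.42 ± 0.16. Top2a was the only member at p under 0.05, beside 1.33% of all probe sets that were lower, of 17 tested cell cycle genes, 11 of which were negative.

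The clock gene Bmal1 had a pooled difference of −0.59 ± 0.19. Its product pairs with Clock to drive the daily rhythm, and its own promoter carries elements that the ROR activators and the Rev-erb repressors compete for. The ACTH rats went from 101 to 86.4 (rat 1) and from 100 to 76.9 (rat 5) in signal, and the DEX rats from 113 to 57.9 (rat 3) and from 94.2 to 69.7 (rat 7). In the saline rats it went from 47.6 to 63.7, from 146 to 137.5, from 68.3 to 111 and from 159.9 to 142. On this probe set hormone rats thus all had the lower value in the right kidney while saline rats went either way. The saline left kidneys alone ran from 47.6 to 159.9. ACTH over saline was −0.43 ± 0.22 and DEX over saline −0.75 ± 0.22. A dimmer Bmal1 probe set, under the brightness filter and not tested, had a pooled difference of −0.21. On it the right minus left difference was 0.15, −0.34, −0.20 and 0.02 in rats 1, 3, 5 and 7. The saline rats had −0.06 to 0.36 there, so the groups overlapped.

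The promoter of Bmal1 is shown for its copies of the ROR response element. Only a narrow form of the element was searched, on both strands with its next to last base left free. That base is the only one at which the 2 Bmal1 copies differ, so the letters fit this promoter exactly. Of the 21 leading genes with a RefSeq promoter Bmal1 alone held them, which is therefore no test of the gene. The window of 300 bases ends shortly after the start (RefSeq, GRCr8, chr1:176766078-176766377, + strand). Capitals mark 2 copies of the element, with 45 and 9 bases between each copy and the start. Of 33469 promoters of that length 12 (0.0359%) held 1 or more copies of these letters. That low share belongs to the narrow form, and other forms of the element were not counted.
Bmal1: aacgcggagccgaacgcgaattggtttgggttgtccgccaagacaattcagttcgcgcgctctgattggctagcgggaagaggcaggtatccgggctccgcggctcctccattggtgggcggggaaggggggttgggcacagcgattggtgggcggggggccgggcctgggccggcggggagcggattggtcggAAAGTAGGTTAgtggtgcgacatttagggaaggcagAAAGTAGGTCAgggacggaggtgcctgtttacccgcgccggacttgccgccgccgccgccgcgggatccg

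The rest of the clock did not follow 1 direction. Of 9 tested members 6 were negative, and the median of −0.06 became 0.03 without rat 1 or rat 5. The Rev-erb gene Nr1d1, whose product represses Bmal1, had −0.37 ± 0.24 and its relative Nr1d2 −0.06 ± 0.30. The output gene Dbp had 0.47 ± 0.28, with 0.02 for ACTH over saline and 0.91 for DEX over saline. Per2 had −0.15 ± 0.27, with −0.73 for ACTH and 0.43 for DEX, and its ACTH minus DEX difference passed the test (−1.16 ± 0.20, adjusted p = 0.0394), 1 of 27 probe sets that did (0.515%).

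The smallest p values among the 12 higher leading genes belonged to Bhmt and Got1. Bhmt, which remethylates homocysteine with betaine, went from 106 to 262 and from 130 to 255 in ACTH rats 1 and 5, and from 94.6 to 150.5 and from 129 to 199 in DEX rats 3 and 7. In the saline rats it went from 137.5 to 169, from 237 to 248.5, from 111 to 100.1 and from 112 to 134. Every hormone rat gained more in the right kidney than any saline rat, and the pooled difference was 0.70 ± 0.22, with 0.93 ± 0.24 for ACTH and 0.47 ± 0.24 for DEX over saline. Got1, the cytosolic aspartate aminotransferase, had right minus left differences of 0.27, 0.47, 0.66 and 0.26 in rats 1, 3, 5 and 7, against −0.07 to 0.12 in the saline rats, a pooled difference of 0.42 ± 0.13. The 2 were the members at p under 0.05, beside 1.41% of all probe sets, of 24 tested genes of gluconeogenesis and amino acid catabolism, of which 17 were positive (median 0.08, or 0.03 without rat 5), where 48.6% of all genes were. Pck1, the rate-limiting enzyme of gluconeogenesis, had 0.53 ± 0.33, and its saline rats alone ran from −1.36 to 0.62.

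Other metabolic genes were among the higher 12. The citrate carrier Slc25a1 had differences of 1.11 and 0.61 in the ACTH rats and 0.25 in each DEX rat, against 0.03 to 0.12 in the saline rats, and a pooled difference of 0.49 ± 0.19. The isocitrate dehydrogenase Idh2 had 0.32 ± 0.13 and a second probe set of it 0.34 ± 0.14, the malate dehydrogenase Mdh2 had 0.29 ± 0.13 but 0.13 ± 0.13 on its other probe set, and the monoamine oxidase Maob had 0.44 ± 0.14. Lactate dehydrogenase Ldhb, a cytosolic enzyme, had 0.31 ± 0.14, or 0.19 ± 0.12 on its other probe set, its hormone rats running from 0.33 to 0.43 and its saline rats from −0.20 to 0.20. Oxidative phosphorylation as a list had 14 of 25 members positive and a median of 0.04, with 0 at p under 0.05. Lysosomal Psap had 0.32 ± 0.11, with 0.23 ± 0.12 and 0.09 ± 0.15 on its other probe sets, and Tcta had 0.41 ± 0.14.

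Gp2, a membrane glycoprotein related to uromodulin, had the largest positive pooled difference of the 24 leading genes at 1.03 ± 0.41, and it was uneven. It went from 76.3 to 451 in ACTH rat 5, from 37.8 to 104 in ACTH rat 1, from 74.6 to 112 in DEX rat 3 and from 50.7 to 69.9 in DEX rat 7, against differences of 0.02 to 0.13 in the saline rats. ACTH over saline was 1.69 and DEX over saline 0.36, and without rat 5 the pooled difference was 0.61. Dnase1, the secreted nuclease of the kidney, had 1.37 and 1.00 in the ACTH rats, 0.56 and 0.49 in the DEX rats and 0.05 to 0.48 in the saline rats, so that DEX rat 7 and saline rat 2 nearly touched. Its pooled difference was 0.61 ± 0.29, and it is the one among the 24 leading genes whose unadjusted p in limma exceeded 0.05. Slc25a1 was likewise unevenly shared, at 0.31 without rat 1.

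Prlr, the prolactin receptor, was the counterpart of Gp2 among the low genes. Its signal went from 221 to 78.7 and from 360 to 127 in the ACTH rats, from 240 to 185 and from 313 to 240.3 in the DEX rats, and in the saline rats from 263 to 262, 210 to 228, 289 to 263 and 296 to 267. The pooled difference was −0.82 ± 0.33, made of −1.32 for ACTH and −0.31 for DEX over saline. Of its 3 other tested probe sets, 1 had −0.88 with groups apart and the others −0.36 and −0.12.

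Ces1e, a carboxylesterase, was even across the hormones: −0.40, −0.38, −0.30 and −0.40 in rats 1, 3, 5 and 7, against −0.13 to 0.56 in the saline rats, where the spread was far wider. The pooled difference was −0.55 ± 0.15. The organic anion transporter Slc22a13 had −0.36 ± 0.11, with −0.38 for ACTH and −0.34 for DEX over saline.

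**Figure D2:**
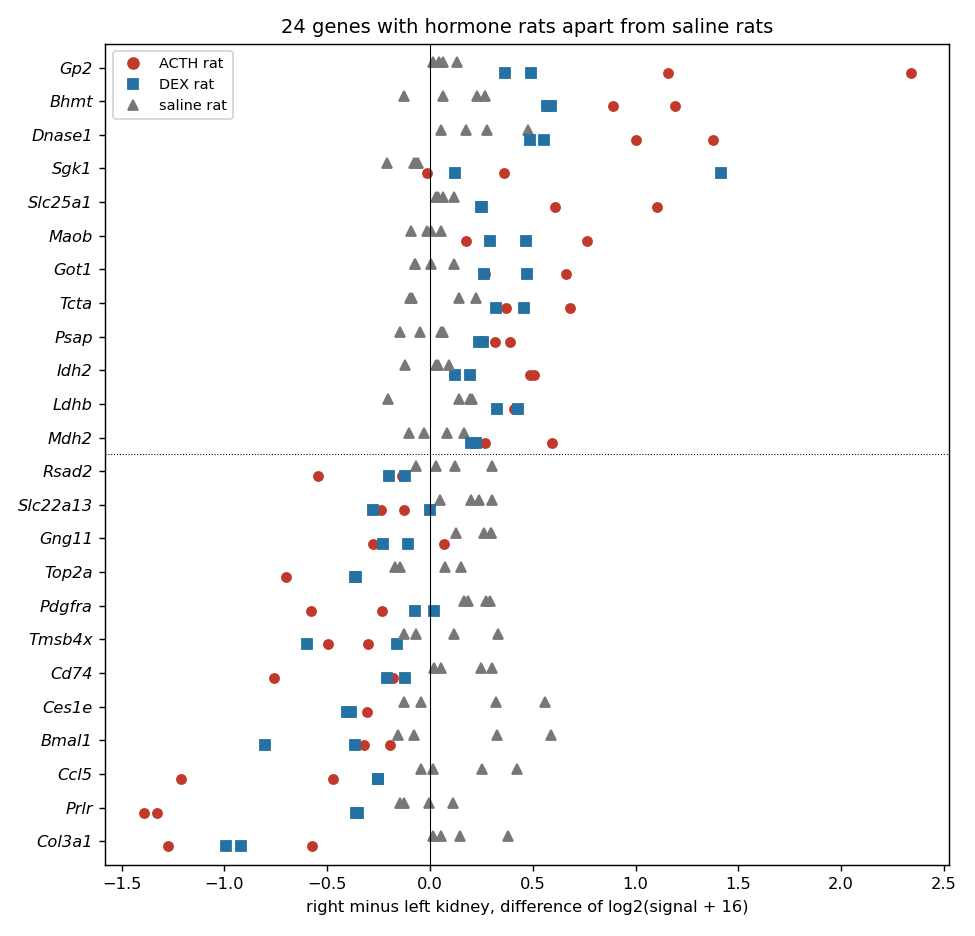
Right minus left difference of log2(signal + 16) in each of 8 rats for the 24 leading genes, ordered by pooled difference, 1 point per rat. Hormone rats lie to the right of the saline rats for the upper 12 genes and to the left for the lower 12, which is how the genes were chosen, and the ACTH rats lie farther out than the DEX rats for Gp2 and Prlr.

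Of the 24 leading genes, 12 higher and 12 lower, ACTH over saline was the larger value in 19 and DEX over saline in the other 5. Medians were 0.48 for ACTH and 0.32 for DEX among the higher genes, and −0.52 and −0.38 among the lower genes. ACTH minus DEX had an unadjusted p under 0.05 for 5 of the 24 (Slc25a1, Gp2, Ccl5, Pdgfra and Prlr) and an adjusted p under 0.05 for 0, in the limma fit with 3 groups, where the shares of all probe sets are 12.2% unadjusted and 0.515% adjusted. The median half-width of that difference over all probe sets was 0.42, so a miss does not show that the hormones act alike.

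Genes with a difference between the hormones are described for comparison. Of the 27 probe sets past the test for ACTH minus DEX, 16 higher and 11 lower, 0 had a pooled p under 0.05. Their pooled differences ran from −0.61 to 0.60. All 27 had opposite signs for the hormones over saline, but some DEX values lay near 0, such as −0.04 for Gstm2 and −0.09 for Pkm. The share with opposite signs over all probe sets was not counted, and choosing by a large gap favours opposite signs. A gap between the hormones adds to the spread of the pooled group, so a high pooled p is built into that choice, and a further probe set of Gstm2, a gene among the 27, had a pooled difference of 0.83 ± 0.36. The 27 included the mitochondrial translocator protein Tspo, with 1.21 for ACTH and −0.16 for DEX over saline, the anion transporter Slco1a1 at −1.26 and 0.44, and adipocyte genes such as Cidea at 1.47 and −1.34. Their number rested on single rats: it was 106 without rat 1, 87 without rat 5, 26 without rat 6, 13 without rat 2, 2 without rat 3 and 0 without rat 4, 7 or 8.

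Fat markers varied from rat to rat. Their mean right minus left difference was 1.53 in rat 1 and 0.41 in rat 5, both given ACTH, −1.03 in rat 3 and −1.13 in rat 7, both given DEX, and −0.85 to 0.35 in the saline rats, so the pooled median of the list was only 0.07. Lipogenic genes were positive in 10 of 11 (median 0.17) with 0 at p under 0.05, and their medians were 0.53 for ACTH and −0.21 for DEX over saline and −0.07 for the pooled difference without rat 1. Fatty acid synthase Fasn had 3.38 in rat 1 and −0.98 to 0.54 in the other 7 rats. With the fat marker difference as a covariate, Col3a1 had −1.08, Bhmt 0.68, Bmal1 −0.60 and Sgk1 0.60.

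Glucocorticoid receptor targets were positive in 13 of 20 (median 0.14, or 0.06 without saline rat 6, with 0.15 for ACTH and 0.27 for DEX over saline), and 2 were at p under 0.05, beside 1.41% of all probe sets that were higher. Ndrg2 had 0.62 ± 0.27, with 1.13 for ACTH and 0.12 for DEX, and 0.38 without rat 1. Sgk1, a kinase that raises sodium channel activity and a classic corticosteroid target, had 0.57 ± 0.25. Its right minus left difference was 1.42 in DEX rat 3 but 0.12 in DEX rat 7 and 0.36 and −0.02 in ACTH rats 5 and 1, against −0.21 to −0.06 in the saline rats, and without rat 3 the pooled difference was 0.26. In the right kidneys Sgk1 signal was 472, 690.5, 419 and 566 in rats 1, 3, 5 and 7 and 417 to 670 in the saline rats (difference −0.03 ± 0.20). In the left kidneys it was 249 to 519 in hormone rats and 435 to 707 in saline rats, which overlapped, with a difference of −0.60 ± 0.24. The positive pooled value of Sgk1 therefore came from lower left kidneys, and it was −0.03 when right kidneys alone were compared. The receptor Nr3c1 had −0.10 ± 0.11, and Hsd11b2, which inactivates glucocorticoid in the distal nephron, had 0.15 ± 0.19, with 0.91 in ACTH rat 5 and −0.03 to 0.11 in the other hormone rats.

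Other receptor targets, each by its brightest probe set, had unadjusted p values above 0.05. The sulfotransferase Sult1a1 had 0.82 ± 0.38, with 1.95 and 0.82 in the ACTH rats and −0.01 and −0.15 in the DEX rats. Cebpb had 0.48 ± 0.31, Nfkbia, the inhibitor of NF-kappaB, 0.47 ± 0.23 and the phosphatase Dusp1 0.36 ± 0.18, with 0.65 ± 0.29 and 0.52 ± 0.20 on dimmer probe sets of Dusp1 that were at an unadjusted p under 0.05. Cebpd, a transcription factor induced by glucocorticoid, is named after its values were seen, since its probe sets disagreed. The brightest had 0.05 ± 0.12, but the others had 0.62 ± 0.17 and 0.48 ± 0.18, both at an unadjusted p under 0.05. In the first of these the hormone rats had 0.63, 0.53, 0.49 and 0.81 in rats 1, 3, 5 and 7 and the saline rats −0.20 to 0.38. Saline rat 4 lay within the range of the hormone rats or close to it at several genes. It had 0.38 for that Cebpd probe set and 0.62 for Pck1. For Zfp36, a member of the kidney injury and immediate early list and not of this one, it had 0.58.

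To show what the promoters of the leading genes hold, the glucocorticoid response element was searched on both strands of the RefSeq windows (GRCr8), as the half-site AGAACA and as the palindrome, which is AGAACA and its reverse complement TGTTCT with 3 free bases between them. Of 33469 promoters 5 (0.0149%) held the palindrome and 20.7% a half-site. Among the 11 higher genes with a promoter, 0 held the palindrome and 2 a half-site, Slc25a1 (chr11:96559804-96560103, + strand) and Dnase1 (chr10:12008195-12008494, − strand), and among the 10 lower genes 0 held either. Bhmt (chr2:26614380-26614679, − strand), the higher leading gene with the lowest p, is shown beside them. Capitals mark the half-site, which both promoters carry as TGTTCT, and a match is a description of the letters only.
Slc25a1: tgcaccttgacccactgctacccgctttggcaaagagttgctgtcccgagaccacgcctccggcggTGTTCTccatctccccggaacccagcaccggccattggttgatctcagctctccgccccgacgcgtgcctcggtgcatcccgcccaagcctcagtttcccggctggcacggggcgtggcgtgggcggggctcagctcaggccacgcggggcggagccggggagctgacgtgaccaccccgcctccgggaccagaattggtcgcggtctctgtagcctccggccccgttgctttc
Dnase1: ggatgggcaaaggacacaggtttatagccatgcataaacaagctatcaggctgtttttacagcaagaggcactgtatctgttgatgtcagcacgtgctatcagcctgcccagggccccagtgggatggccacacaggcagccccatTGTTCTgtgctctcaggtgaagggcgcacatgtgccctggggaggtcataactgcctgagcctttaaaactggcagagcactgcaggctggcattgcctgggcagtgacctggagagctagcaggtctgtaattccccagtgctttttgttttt
Bhmt: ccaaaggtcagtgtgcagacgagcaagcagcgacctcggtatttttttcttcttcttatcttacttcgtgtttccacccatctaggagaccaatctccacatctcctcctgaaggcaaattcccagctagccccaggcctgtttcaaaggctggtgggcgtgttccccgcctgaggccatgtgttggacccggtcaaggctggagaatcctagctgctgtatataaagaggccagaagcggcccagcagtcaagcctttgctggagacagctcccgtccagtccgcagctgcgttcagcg

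Distal nephron transport genes were positive in 13 of 17 (median 0.09). The epithelial sodium channel subunits Scnn1a, Scnn1b and Scnn1g had 0.24, 0.21 and 0.18. Scnn1a rested on rat 5, at 0.81 against 0.03 to 0.18 in the other hormone rats, and Scnn1b was 0.0825 without rat 5. The 10 tested collecting duct and medulla markers, Scnn1b, Scnn1g and Hsd11b2 among them, had a mean right minus left difference of 0.61 in rat 5. That mean was −0.28 to −0.03 in the other hormone rats and −0.17 to 0.28 in the saline rats. The part of cell make-up in the rat 5 values was not tested. The groups were apart for Scnn1g (hormone rats 0.14 to 0.39, saline rats −0.03 to 0.10). Sgk1 and Ndrg2 were again the members at p under 0.05, beside 1.41% of all probe sets. The list's median was 0.21 without rat 1, 0.06 without rat 5, 0.05 after quantile normalization and 0.04 in right kidneys alone. Cholesterol synthesis was positive in 13 of 15 (median 0.15, or 0.07 without rat 3). The thiolase Acat2 at 0.39 ± 0.15 and squalene synthase Fdft1 at 0.31 ± 0.13 were at p under 0.05, beside 1.41% of all probe sets that were higher. Heat shock genes were positive in 18 of 25 (median 0.09), Hspa1a at 0.40 ± 0.14 being the 1 at p under 0.05, beside the same 1.41%. The heat shock medians were −0.08 for ACTH and 0.26 for DEX over saline, and the pooled one was −0.02 without rat 3 and −0.03 without rat 8.

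Egr1, an immediate early transcription factor, differed between the sets of rats. Its pooled difference was 1.20 ± 0.48. In rats 5 to 8 the hormone rats had 1.34 and 1.44 and the saline rats −1.55 and −1.23, whereas in rats 1 to 4 the hormone rats had −0.49 and −0.10 and the saline rats −0.36 and 0.53. Fitted on rats 5 to 8 alone, 2 probe sets passed and both belonged to Egr1 (2.78, adjusted p = 2.43e-07, and 2.19, adjusted p = 8.66e-06 in limma). That fit holds 2 hormone and 2 saline rats with 2 residual degrees of freedom. Its p values therefore lean on the spread of other probe sets and say little about how Egr1 varies between rats. In rats 1 to 4 the brighter of the 2 probe sets had −0.38. That difference between the sets was not tested.

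**Figure D3:**
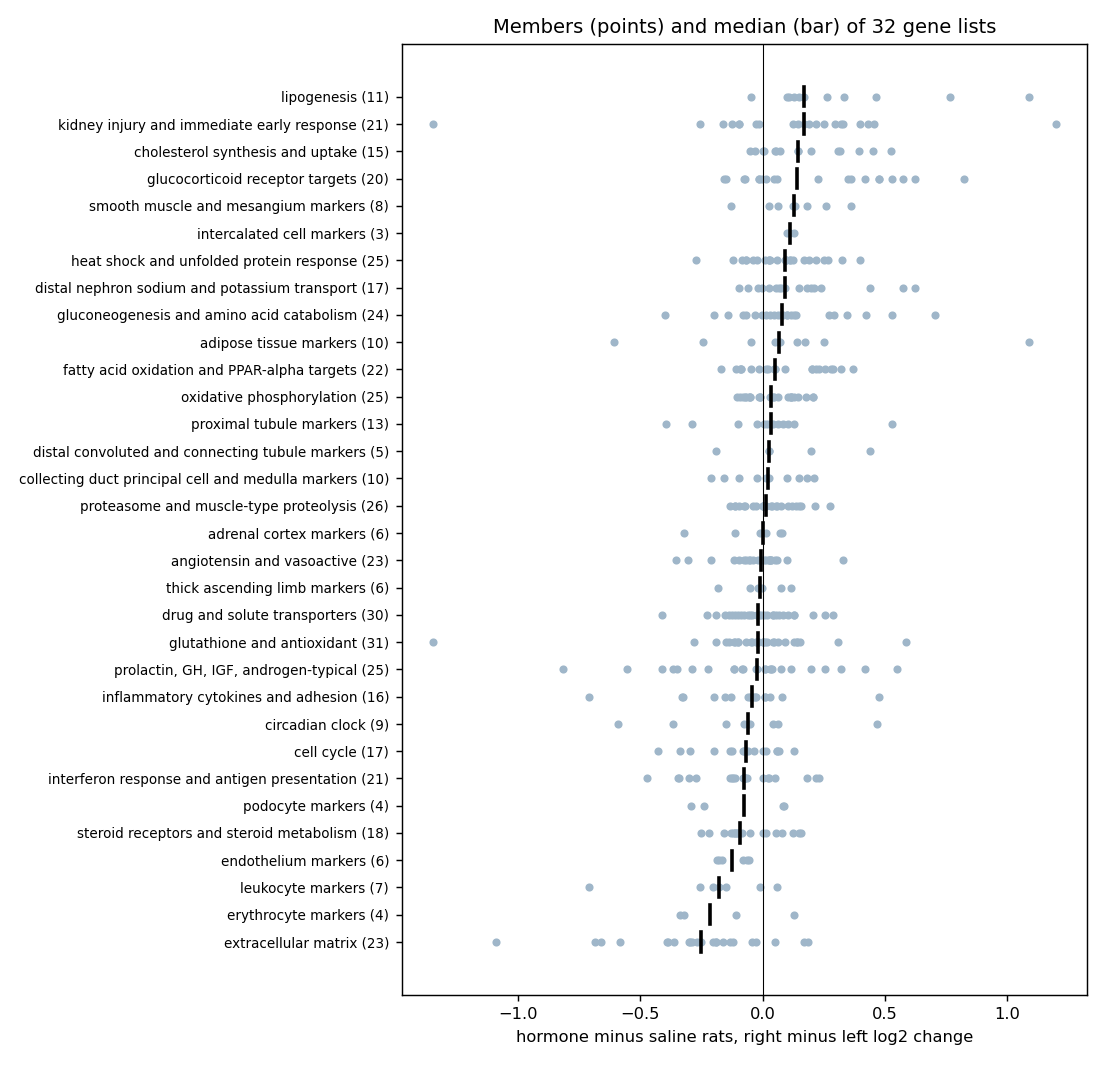
Pooled difference (log2) of each tested member of 32 gene and cell type lists as a point, with the list median as a bar and the number of members in brackets. Medians run from −0.25 for extracellular matrix to 0.17 for lipogenesis, and no list has a member past the test.

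The remaining lists had medians from −0.09 to 0.05 apart from 4. Kidney injury and immediate early response had 0.17, or 0.06 without rat 5 and −0.06 in rats 1 to 4. Smooth muscle and mesangium markers had 0.13, or 0.0098 without rat 5, and intercalated cell markers 0.11, or 0.064 without rat 6. Erythrocyte markers had −0.22, or −0.55 without rat 5 and −0.0007 without rat 7. Of the 32 lists, extracellular matrix and leukocyte markers were those whose median was lower in every hormone rat than in any saline rat. Distal nephron transport was the one where it was higher. Among single probe sets 0.877% were apart below and 1.22% above, but a median over several genes is another unit. How often list medians stand apart without any effect was not tested, and the lists were chosen with earlier results known. The leukocyte medians nearly touched, at −0.0549 in DEX rat 7 and −0.0457 in saline rat 4. So did those of distal nephron transport, at 0.0932 and 0.0835 in the same rats. Smooth muscle markers had medians of 0.33 for ACTH and −0.04 for DEX over saline, with 0 of 8 past the test for ACTH minus DEX. Erythrocyte markers changed sign from rat to rat, from 0.80 in ACTH rat 5 to −0.53 in DEX rat 7, with −0.47 to 0.38 in the saline rats.

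**Figure D4:**
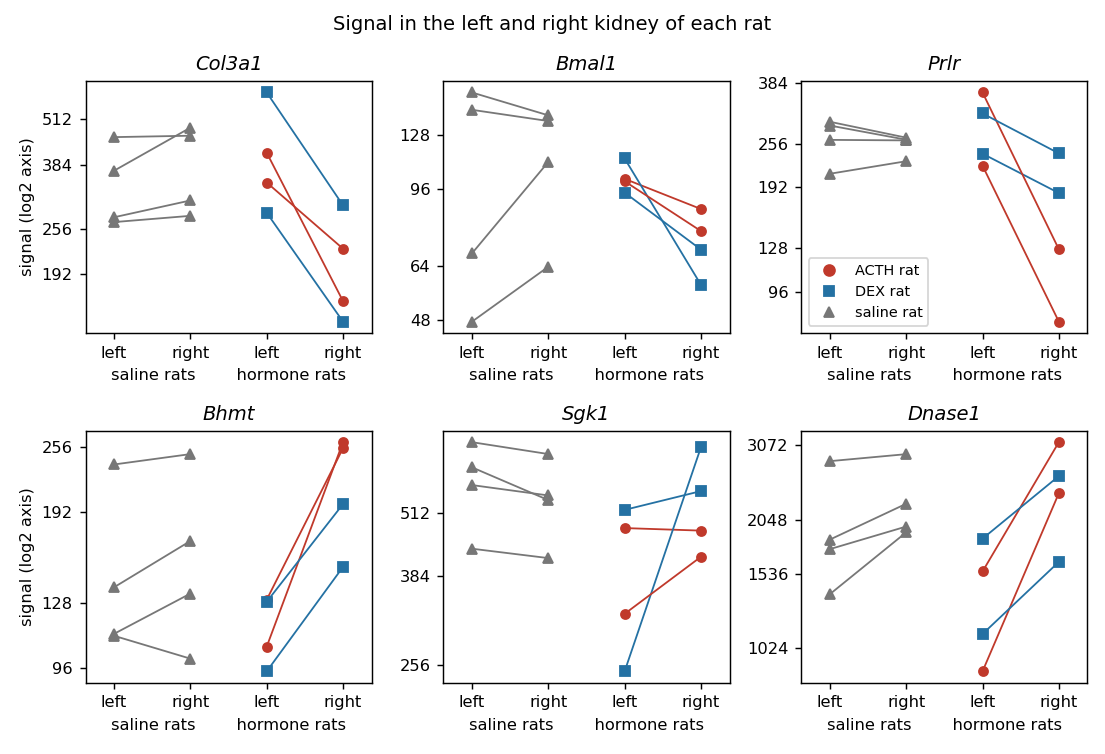
Signal of 6 genes, each by its brightest probe set, in the left and right kidney of each rat, on a log2 axis. A line joins the kidneys of 1 rat. Col3a1, Bmal1 and Prlr are lower in the right kidney of every hormone rat, and for Sgk1 hormone and saline rats overlap in both kidneys, with rats 3 and 5 lowest in the left kidney.

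A pooled difference can arise in either kidney. In the 24 leading genes, which were picked for standing apart in this very measure, the hormone rats' own right minus left difference had a p under 0.05 for 22, the saline rats' for 3. Nothing follows from those counts beyond that choice. Over all probe sets the counts were 585 (11.2%) and 121 (2.31%), 401 of the 585 being higher in the right kidney, and 0 passed adjustment in either group. In right kidneys alone 0 probe sets passed hormone against saline in limma (78 at an unadjusted p under 0.05), and in left kidneys alone 0 passed (33 at an unadjusted p under 0.05).

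For 15 of the 24 the larger part lay in the right kidneys. Beside Col3a1 these included Ces1e (right −0.74, left −0.18), Prlr (−0.73 and 0.08), Bmal1 (−0.51 and 0.08), Top2a (−0.42 and 0.0038), Gp2 (1.01 and −0.02) and Bhmt (0.42 and −0.29). For the other 9 it lay in the left kidneys, as in Sgk1, Dnase1 (right 0.08, left −0.52), Psap (0.06 and −0.26), Cd74 (−0.07 and 0.40), Gng11 (−0.07 and 0.31) and Pdgfra (−0.17 and 0.28). Choosing genes by the right minus left difference favours opposite signs in the kidneys, and the left-kidney difference had the sign opposite to the pooled one in 22 of the 24.

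**Figure D5:**
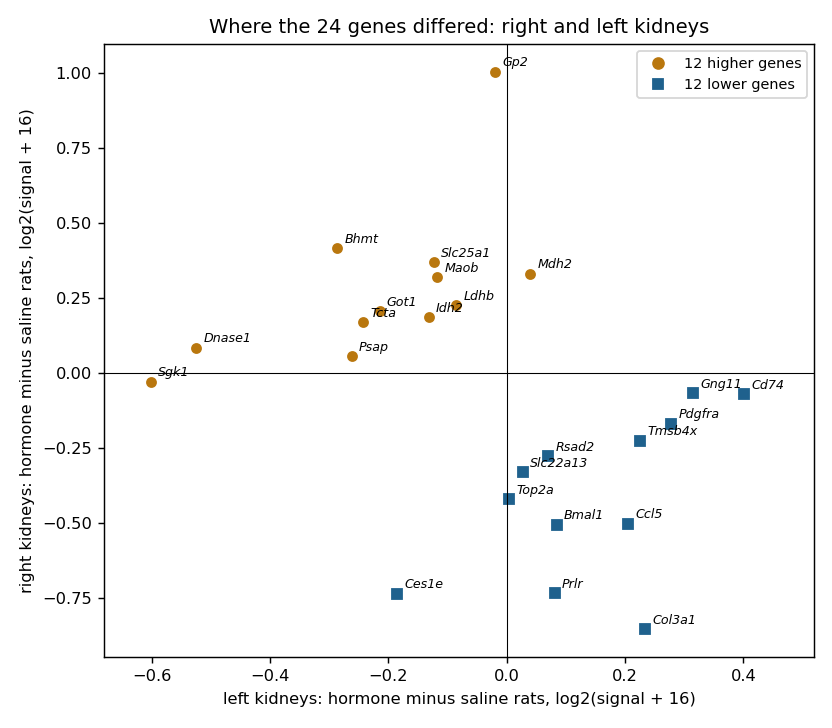
Hormone minus saline difference of log2(signal + 16) in right kidneys (vertical axis) against that in left kidneys (horizontal axis) for the 24 leading genes, 1 point per gene and no error bars. Gp2, Prlr, Ces1e and Col3a1 lie far from 0 on the right-kidney axis, and Sgk1, Dnase1 and Cd74 mainly on the left-kidney axis.

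Of the 110 probe sets whose groups did not overlap, 24 had no single gene symbol and are not named, with pooled differences from −0.41 to 0.89. Each set of 4 rats can be compared alone. Within rats 1 to 4 and within rats 5 to 8 Col3a1 had −1.20 and −0.98, Bhmt 0.73 and 0.68, Bmal1 −0.62 and −0.56 and Prlr −0.89 and −0.74. Cd74 had −0.71 and −0.23, Mdh2 0.12 and 0.46, and Rsad2 −0.15 and −0.54 in the same order. The matrix median was −0.29 and −0.20, and that of distal nephron transport 0.06 and 0.26.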

How the data were processed

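The deposited series matrix holds 1 intensity value per probe set for each of 16 single-colour Affymetrix arrays, 2 per rat, and how the authors scaled these intensities is not given in the sources used here. Per the labels' protocols, total kidney RNA was made into biotinylated cRNA. The values lie on a linear scale, from 5.176 to 12664, and array medians ran from 76.04 to 82.14, so no rescaling was done. The 59 control probe sets were left out, as were the lowest 40% of the other 8740 by mean signal (3496), leaving 5244 with means of 61.12 or more, of which 4402 had 1 gene symbol in the platform annotation (3187 genes). Replicates are separate rats per the titles.

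The right minus left difference of log2(intensity + 16) in each rat was compared between 4 hormone and 4 saline rats with limma 3.58.1 in R 4.3.3 (lmFit, eBayes with an intensity trend), with Benjamini-Hochberg adjustment over the 5244 probe sets. ACTH and DEX were separated in a fit with 3 groups, and right or left kidneys were also fitted alone. Pairing by rat comes from the titles, and deviations of kidneys of the same rat correlated at 0.5554 to 0.7084. The scripts were tested on simulated data.

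Named genes were, in each direction, first those with an adjusted p under 0.05 and then, since there were none, the 12 with the smallest unadjusted p among genes whose hormone rats all lay on 1 side of all saline rats, each by its brightest probe set. Added to these were the 2 members of each list with the smallest unadjusted p, and Sgk1, Nr3c1 and Hsd11b2. Other genes are given as members at p under 0.05 or for their role, or as chosen after their values were seen. The groups, gene lists and genes were chosen with earlier results of these data known. An SE is that of the limma fit. Arrays have no read depth, and the number of rats limits the precision. Alternatives tried were other pseudocounts, filters and normalization, no intensity trend, a block for rats 1 to 4 and 5 to 8, fits within each set, a fat covariate, 3 groups, right kidneys only, no rat block and leaving out each rat.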

Additional observations from a re-analysis of the deposited data

Results flagged for a closer look

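In 152 groups of 4 rats the highest or lowest right minus left difference was compared with the others by Dixon's criterion. It singled out 12, where chance would give about 7.6, or about 1 in 20 groups. Rat 1, which had ACTH, gave 4 of them: −3.55 for the haem oxygenase gene Hmox1 (other hormone rats −0.27 to 0.20), −0.76 for Cd74 (−0.21 to −0.12), −0.70 for Top2a (−0.37 to −0.36) and 0.39 for Scnn1g (0.14 to 0.18). The Hmox1 value came from a left kidney at 2835 signal units against 106 to 142.6 in the other left kidneys. Rat 5, also ACTH, stood apart at 0.91 for Hsd11b2 (−0.03 to 0.11) and −0.30 for Ces1e (−0.40 to −0.38), and DEX rat 3 at 0.55 for the proton pump subunit Atp6v1g3 (0.13 to 0.16) and 0.0173 for Lyz2 (−0.33 to −0.28). Among saline rats, rat 8 had −0.21 for Sgk1 (−0.08 to −0.06) and −0.20 for Ldhb (0.14 to 0.20), rat 6 −0.98 for Fasn (0.15 to 0.33) and rat 2 −0.23 for the steroidogenic factor Nr5a1 (0.36 to 0.40).

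The glutathione transferase Gstm2 differed between the hormones, with ACTH minus DEX at 1.24 ± 0.25 (adjusted p = 0.0453 in limma), 1.21 for ACTH over saline and −0.04 for DEX over saline.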

How the results depend on the processing

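The pooled comparison gave 0 probe sets past the adjusted threshold under every alternative run except rats 5 to 8 alone, which gave 2. With no replicate block, treating paired kidneys as separate arrays, 0 passed in limma, with 53 higher and 64 lower at an unadjusted p under 0.05. The ACTH minus DEX count of 27 became 0 with pseudocount 64 and with no filter, 3 with quantile normalization and with the fat covariate, 57 with the 2 sets as a block, and 0 to 106 when 1 rat was left out, where a lone rat was assumed to vary like the others. Right over left in hormone rats passed for 12 probe sets without the intensity trend and 2 in rats 5 to 8, right over left in saline rats for 2 in rats 5 to 8, and hormone against saline in left kidneys for 6 in rats 1 to 4. The cause was not tested.

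Signs turned in 18 of 1660 values of named genes. In rats 1 to 4 Egr1 had −0.38, S100g 0.0176, Cyp11a1 0.0637 and Hsd11b2 −0.0182. In rats 5 to 8 Atp5pb had −0.0039, Car2 −0.0042, Hbb 0.076, Hbb-b1 0.0959 and Nr3c1 0.0099. With no replicate block and in right kidneys alone Sgk1 had −0.0288, Hbb 0.26 and Hbb-b1 0.24. With 1 rat left out Fasn ran from −0.12 (without rat 1) to 1.27, Egf from −0.47 to 0.0385 (without rat 1) and Hsd11b2 from −0.0619 (without rat 5) to 0.25. At an unadjusted p under 0.05, lower probe sets numbered 138 with no filter, 45 with the lowest 60% left out, 124 in rats 1 to 4, 35 in rats 5 to 8, 46 without rat 1 and 136 without rat 3, and higher ones 23 in rats 1 to 4 and 33 without rat 8. Signal over background limits dim genes: those under the brightness filter, Nr3c2 among them, were not tested.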

Other observations

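Some genes outside the named ones, chosen after their values were seen, had 1 or more probe sets at an unadjusted p under 0.05 in limma, with 0 past adjustment. Alas1, the first enzyme of haem synthesis, had pooled differences of 0.71 ± 0.23 and 0.64 ± 0.22. Its right minus left difference on the brighter probe set was 0.62, 0.49, 0.53 and 0.54 in rats 1, 3, 5 and 7 and −0.82, −0.26 and −0.15 in saline rats 2, 6 and 8, but 0.58 in saline rat 4. The mRNA-destabilising gene Zfp36 had 0.67 ± 0.21 on its dimmer probe set, with 0.52 to 0.83 in the hormone rats, 0.65 in saline rat 4 and −0.25 to −0.13 in the other saline rats, and 0.43 ± 0.27 on its brighter one. For Dusp1 the values were 0.65, 0.52 and 0.36 on 3 probe sets, and saline rat 4 was again positive on each. Why saline rat 4 lay with the hormone rats at these genes was not tested.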
